A study of Mustela putorius furo with 10 samples.

Results

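The ubiquitin-specific proteases (USPs) are the largest family of deubiquitinases, the enzymes that take ubiquitin off proteins, and their mRNAs were examined in peripheral blood mononuclear cells (PBMC) of ferrets kept in the cold. A gene was included when its ferret symbol in RefSeq began with USP and a number and when at least 1 of its probes gave a signal well above background on at least 4 of the 10 arrays. Of 49 such symbols, 35 had a target sequence on the array, and 30 of these passed the signal filter, out of 26303 genes tested in all. The 5 genes that did not pass were USP2, whose best probe was well above background on 1 array, USP26, USP43, USP50 and USP6NL. The last of these carries the letters of the family but encodes a RAB GTPase-activating protein and no deubiquitinase. USP42 and USP44 lay just inside the filter, each with a single probe well above background on 6 and 7 arrays respectively, and USP43 lay just outside it with 3 arrays. For the other 28 genes at least 1 probe was well above background on every array. A further 14 symbols, among them USP10, USP22, USP25 and USP47, had no matched target sequence and were not analysed here.

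Ubiquitin is joined to proteins by a cascade of activating (E1), conjugating (E2) and ligating (E3) enzymes, and it marks them for the proteasome, for sorting at membranes or for signalling. USPs are cysteine proteases that cut this bond again, and each has its own substrates, from histones and repair factors to receptors and immune adaptors. In leukocytes, USPs are known for setting the strength of interferon, NF-kB and TGF-beta signalling and for guarding the cell cycle of dividing lymphocytes.

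PBMC RNA came from male ferrets (Mustela putorius furo) of 3 months of age, of which 6 were kept at 22 °C (control) and 4 at 4 °C for 1 week (cold). Not every animal of the study was arrayed, and more were missing from the cold group, where the study reports difficulty in obtaining PBMC. All animals were anaesthetised and bled from the heart, and the PBMC were separated on a Ficoll gradient. The cold animals were housed singly, and since the labels say this of no control animal, housing and temperature cannot be told apart. Each ferret gave 1 array, on which its RNA, labelled with the green dye Cy3, was hybridised together with a common reference pool of PBMC and other tissues, labelled with the red dye Cy5. Values below are log2 ratios of Cy3 to Cy5 after background correction and loess normalisation within the array, averaged over the probes of a gene. Loess sets 0 to the typical ratio of Cy3 to Cy5 among spots of like intensity on an array, so a value of 0 does not mean equal signal in both channels. A difference of 1 between groups means a 2-fold difference.

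Between 50.4 and 63.5% of the spots of an array were well above background in Cy3. In Cy5, the pool channel that every ratio is set against, the share was 27.0 to 54.9% on control and 40.5 to 64.0% on cold arrays, with median spot intensities of 44 to 80 and 48 to 152. The pool channel was thus brighter on 3 of the 4 cold arrays than on every control array, and its part in the differences between groups was not tested. The precision of all values is limited by the number of arrays. Markers of T cells (11 of 12 measured), B cells (7 of 9), monocytes (6 of 8) and of NK and cytotoxic cells as 1 list (4 of 8) were present, as the label of the cells implies. Markers of neutrophils (6 of 10), erythroid cells (4 of 8) and platelets (6 of 8) were measured as well. The mean log2 ratio of the T cell markers ranged from 0.24 to 0.49 on control arrays and from -0.75 to 0.14 on cold arrays. That of the neutrophil markers ranged from 0.71 to 1.42 in control and from 1.70 to 2.01 in cold, and that of the erythroid markers from 0.18 to 1.12 and from -0.85 to -0.055. These 3 marker lists thus separated the groups without overlap, whereas the other 4 overlapped. Of these, the platelet markers ranged from -0.023 to 1.41 in control and from 0.94 to 2.0 in cold, with all 6 genes higher in mean (median difference 0.87, 4 at an unadjusted p under 0.01 in limma). The monocyte markers ranged from -0.027 to 0.52 and from 0.42 to 1.10, with 5 of 6 higher (median 0.54, 2 under 0.01). In RNA of mixed cells, fewer cells of a type and less RNA per cell cannot be told apart, and the part of the cell mixture in the USP values below was not tested.

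The log2 ratios of most USP genes lay close to 0 in control PBMC, where 0 is the typical spot of the array. In 7 of the 30 genes (USP4, USP9X, USP20, USP27X, USP32, USP35 and USP51) all 6 control arrays lay above 0, and in 7 others (USP5, USP13, USP18, USP28, USP30, USP36 and USP54) all 6 lay below it. These are 23.3% each, beside 29.1% above and 25.8% below over all genes tested. The highest control mean was that of USP32, a membrane-anchored enzyme that acts on RAB7, with 0.60 ± 0.31 (SD, n = 6). USP20, which acts on HIF1A and the beta2-adrenergic receptor, followed with 0.38 ± 0.13, and USP4 with 0.32 ± 0.08. These neighbours overlapped in their control arrays. The lowest mean was that of USP28, a partner of TP53BP1 that stabilises MYC, at -1.02 ± 0.18. It was followed by USP30, an enzyme of the mitochondrial outer membrane that opposes parkin, at -0.64 ± 0.27, and by USP5 at -0.52 ± 0.19. The ranges of USP28 and USP30 overlapped in control, as did those of USP30 and USP5. These are ratios to a pool, set relative to other spots, and give no order of abundance among the genes.

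**Figure D1:**
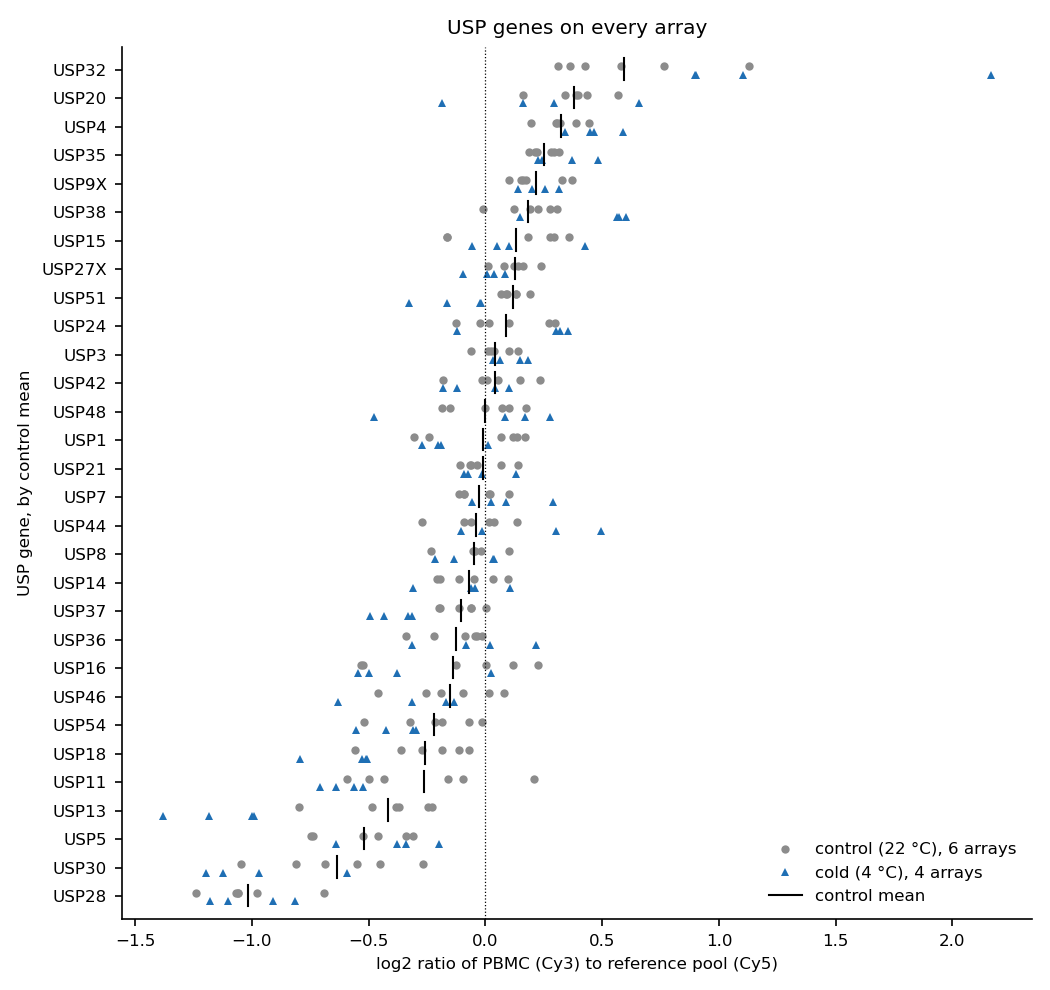
Log2 ratio of PBMC (Cy3) to the reference pool (Cy5) on the horizontal axis for each of the 30 USP genes, sorted by control mean, with the 6 control arrays as grey circles, the 4 cold arrays as blue triangles and the control mean as a dash. USP32 lies highest and USP28 lowest, and the cold triangles of USP13, USP37 and USP51 all lie to the left of the control circles.

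The comparison of cold with control asks which USP mRNAs of circulating immune cells differ after a week of cold. The USP genes were split in direction, since 17 had a lower and 13 a higher mean in cold and the median log2 difference was -0.004, beside -0.01 and 52.0% lower over all genes tested. The differences ranged from -0.72 for USP13 to 0.67 for USP32, 11 genes lay within 0.1 of 0 and 5 lay beyond 0.3. At the methods' unadjusted threshold of 0.01, 3 genes were lower in cold in limma (USP13, USP37 and USP51), where 3.43% of all genes were called lower and 8.64% in either direction. No USP gene was called higher at that threshold, where 5.21% of all genes were. In the ratio, the same 3 genes were the only ones whose groups did not overlap, all lower in cold. Over all genes, 2.15% were lower and 3.07% higher without overlap. After Benjamini-Hochberg adjustment over all genes no USP gene passed 0.05 in limma, and neither did any gene of the array (0%). On the cold arrays, where these 3 genes were lower, the T cell and erythroid markers were also lower, and the neutrophil markers and most platelet and monocyte markers higher (ranges above), and their part in the differences was not tested. At an unadjusted 0.05, limma called 5 USP genes lower (USP11 and USP18 besides those 3) and 2 higher (USP32 and USP38), beside 12.5% and 12.2% of all genes. By the methods' t-test, 3 USP genes were lower and 0 higher at 0.01, beside 2.53% and 4.03% of all genes, and none passed after adjustment. The direction of small differences depended on the scaling of the arrays. Of 5 alternatives in background, normalisation and channel, median centring moved the median of all genes to -0.43, so signs were read against the median of all genes in each. On that reading 14 of the 30 genes kept their side in all 5, of which 9 lay below the median (USP1, USP11, USP13, USP16, USP18, USP20, USP27X, USP30 and USP37) and 5 above it (USP3, USP4, USP32, USP38 and USP44).

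**Figure D2:**
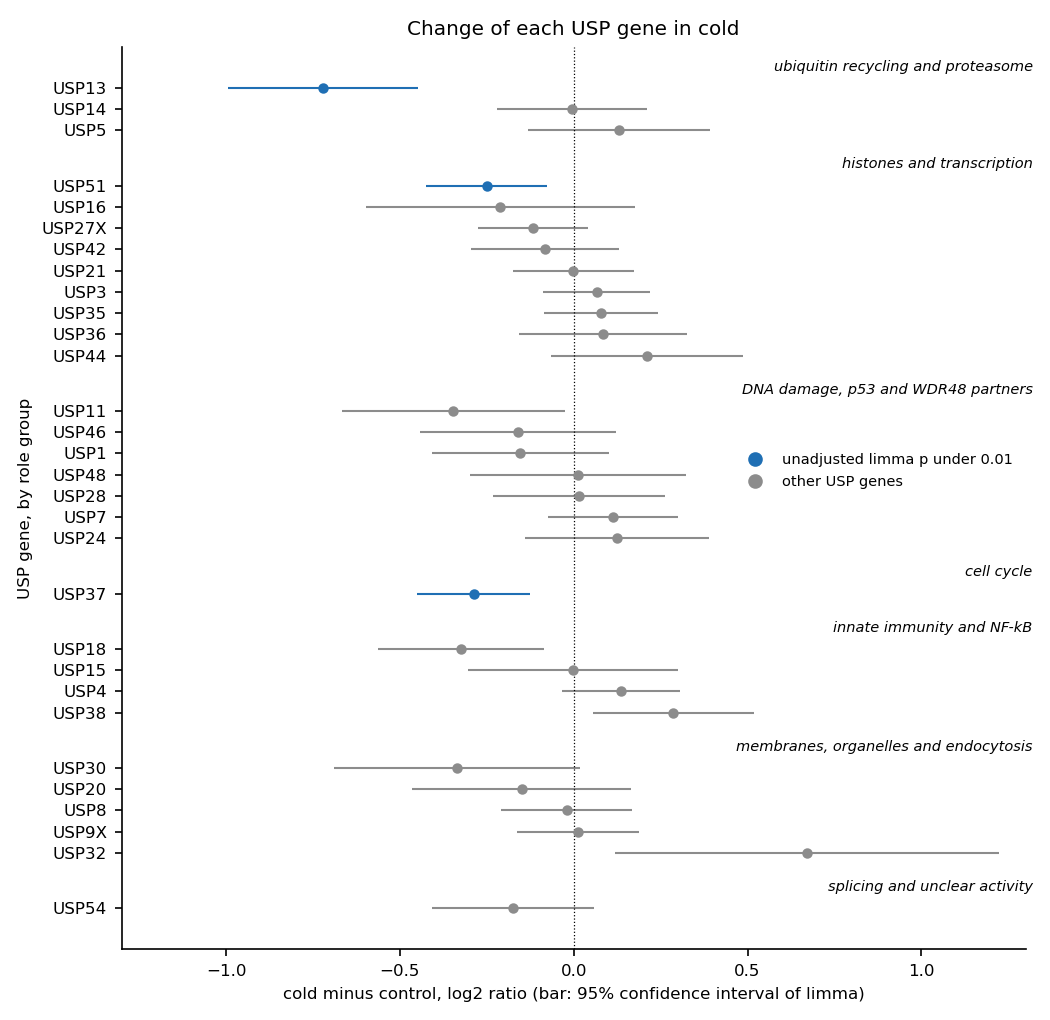
Cold minus control on the log2 ratio scale for the 30 USP genes, grouped by role, with points for the limma estimate and bars for its 95% confidence interval. Blue marks the 3 genes with an unadjusted p under 0.01, which all lie left of 0, and the interval of USP32 is the widest.

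USP13 was 1.65-fold lower in cold, the largest difference among the 30 genes in the ratio as reported. It is the closest relative of USP5, or isopeptidase T, which takes apart unanchored ubiquitin chains so that ubiquitin can be used again. USP13 had a log2 ratio between -0.80 and -0.23 on the control arrays (median -0.38) and of -1.18, -1.0, -1.38 and -0.99 on the 4 cold arrays. Each cold array thus lay below the lowest control array, control replicate 5, which itself stood apart from the others at the low end. The group values were -0.42 ± 0.21 (SD, n = 6) and -1.14 ± 0.18 (SD, n = 4), a difference of -0.72 (standard error 0.12, limma adjusted p = 0.0576). The exact permutation test gave a two-sided p of 0.00476, the smallest that 210 splits of the arrays allow. The 4 probes of USP13 gave differences between -0.76 and -0.67. The adjusted p fell under the threshold without control replicate 5 (-0.80, limma adjusted p = 0.0255) and without cold replicate 2 (-0.77, limma adjusted p = 0.0252). Other genes exceeded USP13 in size under some settings, since USP11 was further from 0 with median centring (-1.39 against -1.10) and in the deposited table (-0.76 against -0.74), USP18 with median centring (-1.14) and with Cy3 alone (-0.82 against -0.45), and USP32, in the other direction, without cold replicate 1, 2 or 4 (0.73 to 0.80) and without both control replicate 5 and cold replicate 1 (0.83). A second target sequence, XM_004756639, is named USP13 by the study but is not in the RefSeq table used here. It had -0.40 ± 0.25 on the control arrays (SD, n = 6) and -1.15 ± 0.22 on the cold arrays (SD, n = 4). There the lowest control array (-0.88) and the highest cold array (-0.85) overlapped, and the exact permutation p was 0.00952.

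USP5 and USP14 are the other measured genes of ubiquitin recycling. USP5 had a log2 ratio between -0.75 and -0.31 in control (median -0.49) and of -0.38, -0.20, -0.64 and -0.34 in cold. Its difference of 0.13 (95% interval -0.13 to 0.39) lay within overlapping groups, and it turned negative with each array centred on its median (-0.94, where the median of all genes was -0.43), with Cy3 alone (-0.43) and in the deposited table (-0.40). With Cy3 alone USP5 was thus about as much lower as USP13 (-0.45). USP14, which sits on the proteasome and trims ubiquitin from its substrates, differed by -0.0056 (95% interval -0.22 to 0.21).

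Of the genes that act on histones and transcription, 9 of 12 were measured, 5 lower and 4 higher in cold, and USP51 was the one past the unadjusted threshold. USP51 and USP27X can take the place of USP22 as the deubiquitinase of the SAGA co-activator module, which acts on histone H2B. USP51 lay between 0.066 and 0.19 on the control arrays (median 0.11) and at -0.17, -0.017, -0.33 and -0.025 on the cold arrays. All control arrays were thus above 0 and all cold arrays below it. The difference was -0.25 (standard error 0.08, limma p = 0.00855, adjusted p = 0.110), from 0.12 ± 0.045 (SD, n = 6) to -0.13 ± 0.15 (SD, n = 4), with an exact permutation p of 0.00476. The 4 probes gave -0.34 to -0.08, but only 1 of them was well above background on all 10 arrays. USP51 missed the unadjusted threshold without any 1 of the control arrays and without cold replicate 1 or 3 (limma p from 0.0118 to 0.0266), and its difference was -0.93 with the scanner software's processed intensities and -0.01 in the deposited table. With median centring it was -0.31, which lies above the -0.43 of all genes, so that USP51 was not lower than the typical gene there. USP27X differed by -0.12 (95% interval -0.28 to 0.04) and lay below the median of all genes under all 5 scalings.

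USP3, USP16 and USP21 take ubiquitin off histone H2A. USP16 differed by -0.21, USP21 by -0.0013 and USP3 by 0.07, all with intervals that include 0. USP16 was represented by 10 target sequences and 40 probes, 39 of which were lower in cold, while the control arrays of USP16 ranged from -0.53 to 0.23. Its difference was -0.34 without cold replicate 3 and -0.14 without control replicate 6. USP44, which acts on histone H2B and in the mitotic checkpoint, differed by 0.21 on its 1 probe and by 0.10 without cold replicate 1. USP42 differed by -0.08, also on 1 probe, and by 0.63 in the deposited table. USP36, a nucleolar enzyme, differed by 0.085, with cold arrays spread from -0.31 to 0.22 (cold replicate 2). USP35 differed by 0.08, with cold arrays from 0.23 to 0.48 (cold replicate 4).

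In the group of DNA damage, p53 and WDR48 partners, 7 of 12 genes were measured, 3 lower and 4 higher in cold, and none passed the unadjusted threshold of 0.01. USP11, which acts in homologous recombination repair, ranged from -0.59 to 0.21 in control (median -0.30) and was -0.71, -0.56, -0.52 and -0.64 in cold. The cold arrays thus lay in or below the lower part of a wide control range. The difference was -0.35 (standard error 0.15, limma p = 0.0371, exact permutation p = 0.0524), and it came to -1.39 with median centring and -0.76 in the deposited table. USP28, whose control ratio was the lowest of the 30, was at -1.0 ± 0.17 (SD, n = 4) in cold, with a difference of 0.015 (95% interval -0.23 to 0.26) that turned negative with median centring (-0.76, below the -0.43 of all genes) and in the deposited table (-0.31). USP1, which acts on FANCD2 and PCNA together with WDR48, differed by -0.15. USP46, which WDR48 and WDR20 activate, differed by -0.16, by -0.055 without cold replicate 1 and by 0.24 in the deposited table. USP7, an enzyme of p53 and its ligase MDM2, differed by 0.11 with all 8 probes higher, and by 0.046 without cold replicate 3. USP48 differed by 0.01, with cold replicate 4 at -0.48 and cold replicates 1 to 3 at 0.17, 0.082 and 0.28. USP24 differed by 0.12, by 0.24 without cold replicate 4, and in the opposite direction with the processed intensities (-0.078), with Cy3 alone (-0.078), in the deposited table (-0.21) and with median centring (-0.66).

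USP37 was the single measured gene of 5 in the cell cycle group. It stabilises cyclin A at the start of S phase. Its log2 ratio lay between -0.20 and 0.0017 in control (median -0.09) and at -0.33, -0.43, -0.50 and -0.31 in cold, and the groups did not overlap. The difference was -0.29 (standard error 0.07, limma p = 0.00249, adjusted p = 0.0815), from -0.11 ± 0.08 (SD, n = 6) to -0.39 ± 0.09 (SD, n = 4), a 1.22-fold lower level, with an exact permutation p of 0.00476. All 16 probes were lower in cold, and the 4 target sequences gave -0.32 to -0.23. Taken singly, the sequences overlapped between the groups, except the one at -0.30 (exact permutation p = 0.00476). The one at -0.23 had an exact permutation p of 0.0952. USP37 kept an unadjusted p under 0.01 when any 1 array was left out, and missed that threshold with Cy3 alone (-0.28), in the deposited table (-0.42) and with the replicate number as a block (-0.30). Its difference was -0.51 with the processed intensities and -0.76 with median centring (all genes -0.43).

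Among the genes of innate immunity and NF-kB, 4 of 7 were measured, and they pointed both ways. USP18 removes ISG15, a ubiquitin-like product of interferon signalling, from proteins and is itself induced by interferon. It lay between -0.56 and -0.07 in control (median -0.23) and at -0.51, -0.53, -0.79 and -0.51 in cold. Control replicate 2, the lowest control array, lay within the cold range, and cold replicate 3 lay below all others. The difference was -0.32 (standard error 0.11, limma p = 0.0121, adjusted p = 0.121), with an exact permutation p of 0.0286, and 18 of 20 probes were lower. It was larger under every other scaling, at -0.44 without background subtraction, -0.71 in the deposited table, -0.82 with Cy3 alone, -0.85 with the processed intensities and -1.14 with median centring, and USP18 passed the unadjusted 0.01 in all 5. It also did so without control replicate 2 (-0.38). USP38, which acts on the kinase TBK1, lay between -0.01 and 0.30 in control (median 0.21) and at 0.56, 0.15, 0.60 and 0.57 in cold. Cold replicates 1, 3 and 4 were thus above every control array, and cold replicate 2 was among the controls. The difference of 0.29 (standard error 0.11, limma p = 0.0202, exact permutation p = 0.0333) reached 0.39 without cold replicate 2 (limma adjusted p = 0.0396), and was 0.51 in the deposited table, 0.19 with median centring and 0.086 with the processed intensities.

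USP4 and USP15 are close relatives that act on signalling adaptors and on the spliceosome, and USP15 also on the TGF-beta receptor. USP4 lay between 0.19 and 0.44 in control (median 0.31) and at 0.46, 0.34, 0.45 and 0.59 in cold. Its difference of 0.14 (95% interval -0.03 to 0.31, exact permutation p = 0.0476) was -0.0037 with the processed intensities, -0.0018 with Cy3 alone and -0.38 with median centring, where it still lay above the median of all genes. USP15 differed by -0.0016 (95% interval -0.30 to 0.30).

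**Figure D3:**
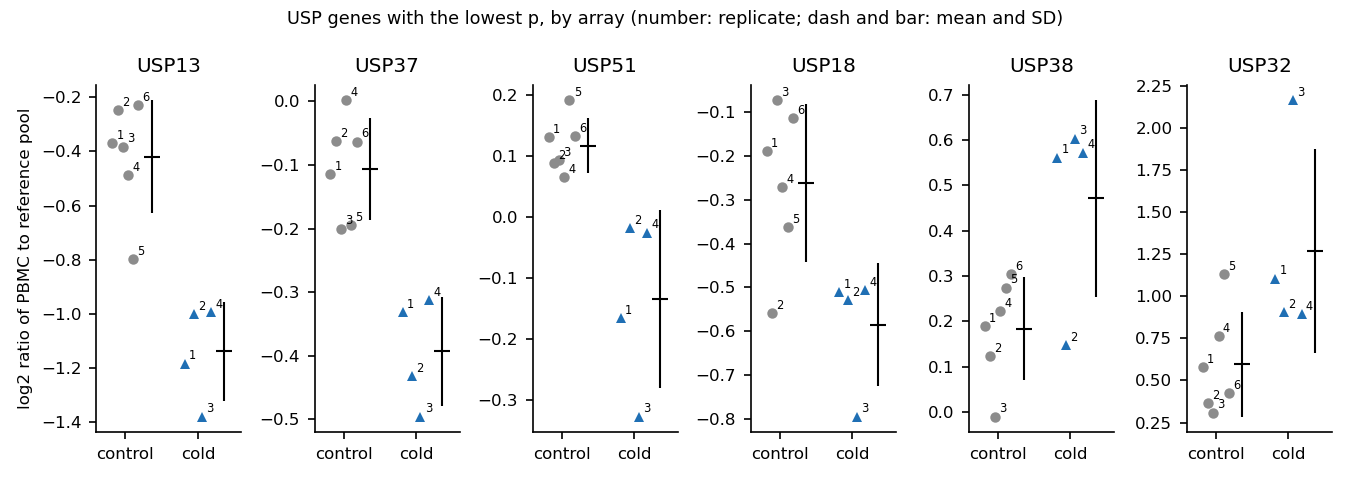
Log2 ratio of PBMC to the reference pool on each array for the 6 USP genes with the lowest p, with numbers for the replicates, grey circles for control, blue triangles for cold, and mean and SD beside them; each panel has its own vertical scale. The groups are separate in USP13, USP37 and USP51 and overlap in USP18, USP38 and USP32, where cold replicate 3 of USP32 reaches 2.16.

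Of the genes of membranes, organelles and endocytosis, 5 of 8 were measured, 3 lower and 2 higher. USP32 lay between 0.31 and 1.13 in control (median 0.50) and at 1.10, 0.90, 2.16 and 0.90 in cold. The highest control array, replicate 5, exceeded 3 of the 4 cold arrays, and cold replicate 3 stood far above the rest. The difference was 0.67 (standard error 0.25, limma p = 0.0215, adjusted p = 0.143, exact permutation p = 0.0286), a 1.59-fold higher level. It was 0.37 without cold replicate 3 (limma adjusted p = 0.299) and 0.78 without control replicate 5 (limma adjusted p = 0.0759). With other scalings it was 0.51 in the deposited table, 0.40 with Cy3 alone, 0.28 with the processed intensities and 0.15 with median centring (all genes -0.43), and it missed an unadjusted 0.05 in these 4. USP30 ranged from -1.05 to -0.27 in control (median -0.62) and was -1.20, -0.59, -1.12 and -0.97 in cold. Its difference of -0.34 (95% interval -0.69 to 0.02) lay within overlapping groups, although all 8 probes were lower, and it was -0.06 with Cy3 alone. USP20 differed by -0.15, with cold arrays from -0.19 to 0.66 around the control range of 0.16 to 0.57. This rested on single arrays and on the scaling, since it was -0.0098 without cold replicate 3, -0.29 without cold replicate 2, -0.30 with Cy3 alone, -0.28 with the processed intensities, -0.59 in the deposited table and -1.04 with median centring. USP8, an endosomal enzyme of receptors and the ESCRT machinery, differed by -0.02 and USP9X, which acts on MCL1 among many substrates, by 0.01. USP54, the single measured gene of 6 in the group of splicing and unclear activity, differed by -0.17 (95% interval -0.41 to 0.06) and by -0.0067 with Cy3 alone.

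The ferret signal and the pool signal were also read apart, each channel quantile normalised between arrays. With Cy3 alone, 3 USP genes were lower in cold at an unadjusted p under 0.01 in limma (USP5, USP13 and USP18), where 4.36% of all genes were, and none higher, where 5.48% were. None passed the adjusted 0.05, where 0.924% of all genes were lower and 1.89% higher. At 0.05 the counts were 8 lower and 0 higher, beside 12.8% and 12% of all genes. USP18 had the largest Cy3 difference, -0.82 (limma adjusted p = 0.0515), with log2 intensities from 10.69 to 11.56 on control arrays and of 10.34, 10.28, 10.07 and 10.49 on cold arrays. These did not overlap, where 3.46% of all genes were lower without overlap, and its Cy5 signal differed by 0.0064 between the groups. For USP13 the Cy3 difference was -0.45 and the Cy5 difference 0.13, and in Cy3 alone cold replicate 1 (8.59) lay within the control range of 8.52 to 8.95. USP37 and USP51 overlapped in Cy3 as well. USP37 ranged from 8.88 to 9.37 in control and from 8.69 to 9.11 in cold. USP51 ranged from 7.25 to 7.74 and from 6.95 to 7.33. These 3 genes were thus separate between the groups in the ratio but not in Cy3 alone.

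In USP5 both channels differed between the groups. Its Cy3 signal was lower in cold by 0.43 on the log2 scale (13.10 ± 0.15 in control, n = 6, and 12.67 ± 0.25 in cold, n = 4). Its Cy5 signal was lower by 0.47 (10.11 ± 0.30 and 9.64 ± 0.13) without overlap, although the same pool was hybridised to every array. No other USP gene had a Cy5 difference at an unadjusted p under 0.05 in limma, where 8.66% of all genes did, and 0.589% of all genes were lower in Cy5 without overlap. In cold the mean Cy5 signal was higher by 0.065 for USP51 (exact permutation p = 0.0238), by 0.13 for USP13 (0.0571) and by 0.053 for USP37 (0.0714). The ratio of USP5 thus differed by 0.13 while both of its channels were lower in cold, and what moved the pool channel was not tested. In all, 22 of the 30 genes had the same sign in the ratio and in Cy3.

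**Figure D4:**
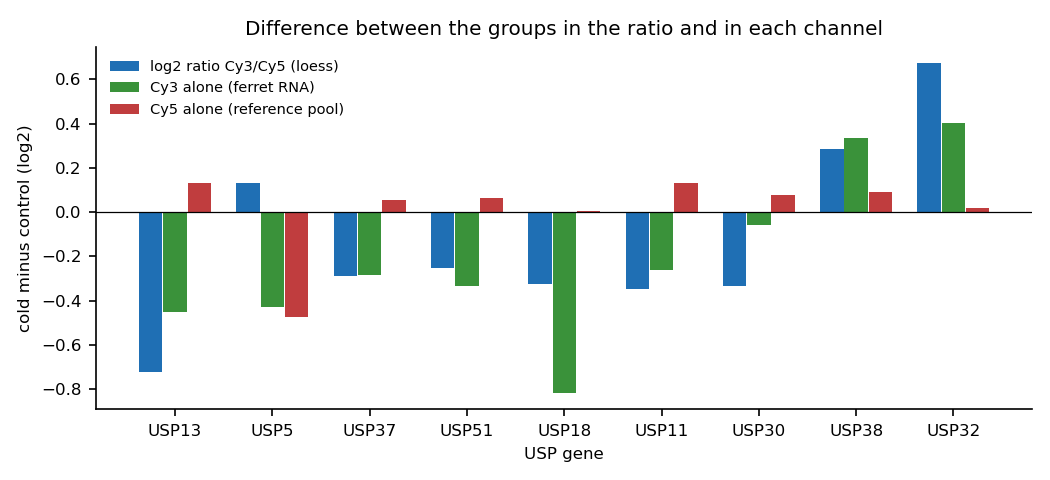
Cold minus control on the log2 scale for 9 USP genes in the loess-normalised ratio (blue), in Cy3 alone (green, ferret RNA) and in Cy5 alone (red, reference pool), as bars from 0. USP18 has a long negative Cy3 bar and almost no Cy5 bar. USP13 has a negative Cy3 bar (-0.45) and a positive Cy5 bar (0.13), and USP5 has negative bars in both channels beside a positive ratio.

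The USP genes varied within a group about as much as other genes. The pooled within-group SD had a median of 0.17 over the 30 genes and of 0.19 over all genes tested, and ran from 0.070 for USP3 to 0.44 for USP32. The median size of the difference between groups was 0.13, beside 0.15 over all genes. USP32 and USP11 had the widest range among control arrays. Control replicate 3 was the lowest of the 10 arrays in 9 of the 30 genes (30.0%, beside 7.03% of all genes), and cold replicate 3 was the highest or lowest most often (21.7% of the extremes, beside 17.3%). Control replicates 2 and 3 were together the lowest of the controls in 7 genes (USP1, USP9X, USP15, USP16, USP32, USP38 and USP48), which is 23.3% beside 7.17% of all genes. These array patterns were noticed after the values were seen and are given as a description. Arrays lay in 1 of 2 positions on their slides, with control replicates 3 and 5 and cold replicates 3 and 4 in the second. Within the positions USP13 differed by -0.76 and -0.60, USP37 by -0.32 and -0.21, and USP51 by -0.20 and -0.32, and 20 of the 30 genes had the same sign in both.

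Deubiquitinases without a USP number, listed together with genes that share the USP fold, were also split. Of 39 such genes 25 were measured, 14 with a lower and 11 with a higher mean in cold and a median difference of -0.02. PAN2 was the one gene past the unadjusted threshold of 0.01 in limma, and it was higher, beside 5.21% of all genes called higher and 3.43% lower. PAN2 has a USP-like fold without deubiquitinase activity and is a subunit of a deadenylase that shortens the tails of mRNAs. It had 0.15 ± 0.07 on the control arrays (SD, n = 6) and 0.41 ± 0.06 on the cold arrays (SD, n = 4) without overlap, a difference of 0.26 (standard error 0.07, limma adjusted p = 0.0856, exact permutation p = 0.00476) that was -0.076 with median centring, above the -0.43 of all genes. CYLD, the other measured gene with this fold and a brake on NF-kB, differed by 0.23 (exact permutation p = 0.0619). ZRANB1, a deubiquitinase of the OTU family, was also separate between the groups but lower in cold, with 0.16 ± 0.065 (SD, n = 6) and -0.077 ± 0.16 (SD, n = 4), a difference of -0.23 (standard error 0.08, limma adjusted p = 0.136, exact permutation p = 0.00476). At an unadjusted 0.05, 4 of the 25 were lower (ZRANB1, BRCC3, OTUB1 and YOD1) and 3 higher (PAN2, MINDY3 and TNFAIP3), beside 12.5% and 12.2% of all genes.

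Among partners of the USPs, 9 of 14 were measured, 5 lower and 4 higher, none at an unadjusted p under 0.01 and 3 at 0.05 in limma, beside 8.64% and 24.7% of all genes. STAM2, an ESCRT adaptor that binds USP8, differed by -0.22 (exact permutation p = 0.00952), WDR20 by 0.23 (0.0238) and TP53BP1, the partner of USP28, by 0.60 (0.0905). Of 39 genes for ubiquitin and its E1 and E2 enzymes, 23 were measured, 15 lower and 8 higher, with a median of -0.05. None passed 0.01 in limma, and 2 were lower at 0.05, UBE2K (-0.36) and UBE2V2 (-0.31), beside 12.5% of all genes.

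**Figure D5:**
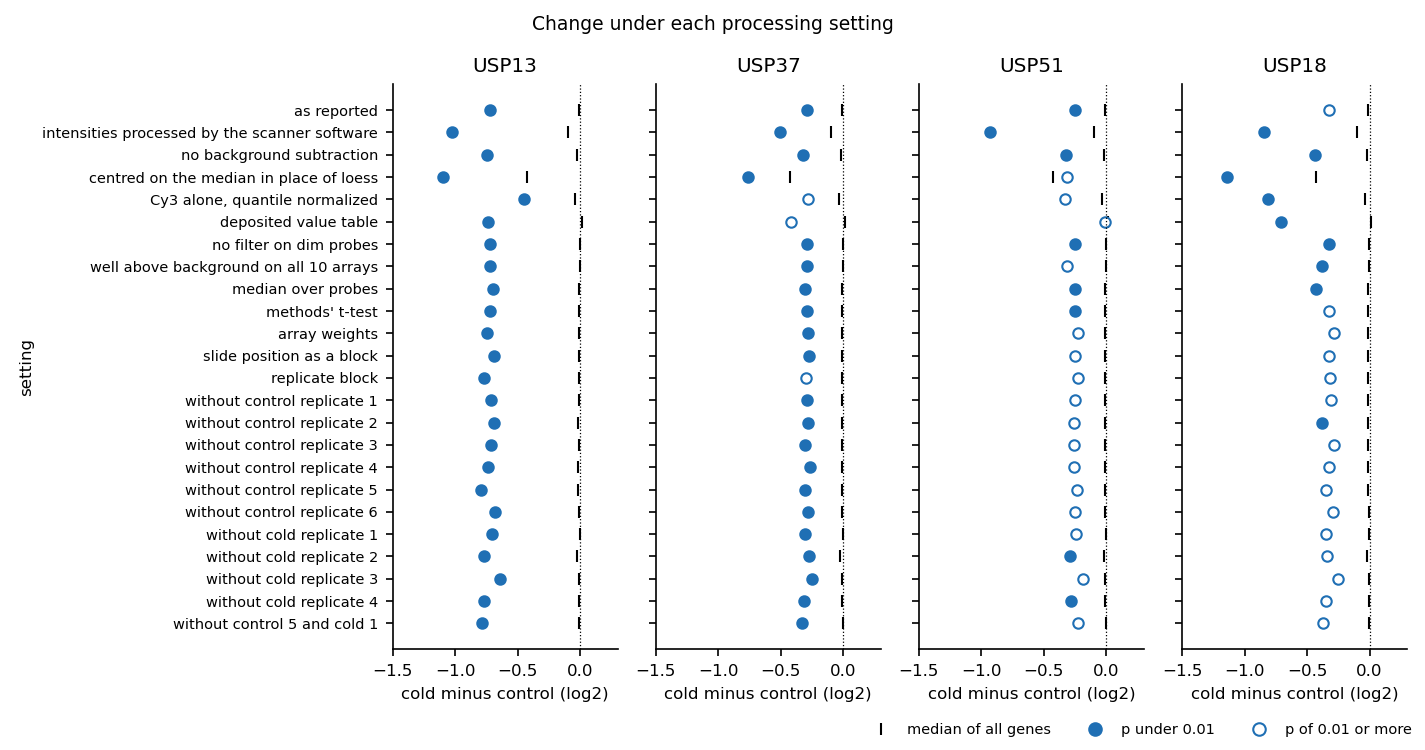
Cold minus control on the log2 scale for USP13, USP37, USP51 and USP18 under each processing setting, with filled circles for an unadjusted p under 0.01, open circles for a higher p and dashes for the median of all genes. USP13 is filled in every setting, between -1.10 and -0.45, whereas USP51 is open in most and USP18 is filled in 9 of the 23 alternatives.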

How the data were processed

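PBMC RNA (Cy3) of 6 control and 4 cold ferrets was measured against a reference pool (Cy5) on 10 arrays. The authors deposited median spot and background intensity per channel from Feature Extraction 10.7.3.1, per the labels, not normalized, and a table of log2 values. That table equalled log2 Cy3 minus log2 Cy5 after centring on arrays and sequences, with column medians from 7.86 to 8.78 whose constants are unknown, and served as an alternative. The planned mean intensity was replaced by the median that the files carry.

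Intensities were corrected with normexp (offset 50) and loess (span 0.3, 4 iterations) in limma 3.58.1 under R 4.3.3. Of 181312 probes, 111051 with gIsWellAboveBG on at least 4 arrays were kept and averaged per gene. Target sequences were named through RefSeq accessions (assembly ASM1176430v1.1), 21104 of 45328 as 12918 genes, and 9276 of the 26303 genes tested had a symbol. The genome build of the probes is not given in the sources used here, so no coordinates are printed. Groups were compared by lmFit and eBayes, p-values were adjusted over all genes (Benjamini-Hochberg), and single genes also by an exact two-sided permutation test over 210 splits. The script was tested on simulated data.

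Genes were named by rule: unadjusted p under 0.01, groups without overlap, USP13 and USP37, the lowest p per role group, the 3 highest and 3 lowest control means, the 2 widest control ranges, and genes of the other ubiquitin lists with p under 0.01. USP38 and the genes named for a p under 0.05, scaling or array pattern were chosen after their values were seen, and all 30 members have their difference given. The members, role groups and lists were chosen with earlier results of these data known. Each array held the RNA of 1 animal. Alternatives were the processed intensities, no background subtraction, median centring, Cy3 alone, the deposited table, other probe filters, the median over probes, array weights, slide position or replicate number as a block, the methods' t-test and each array left out.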

Additional observations from a re-analysis of the deposited data

Results flagged for a closer look

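Of 24 groups of arrays tested (12 named USP genes in control and cold), 2 held an array far from the others, where chance gives about 5% of groups. Cold replicate 3 had a log2 ratio of -0.79 for USP18, with -0.53 as the nearest cold array, and of 2.16 for USP32, with 1.10 as the nearest. Of all 10 arrays, the same array had the lowest mean of the T cell markers (-0.75) and of the NK and cytotoxic markers (0.15). It also had the highest mean of the neutrophil (2.01), monocyte (1.10) and platelet markers (2.0). The part of this in both USP values was not tested.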

How the results depend on the processing

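The count of USP genes lower in cold at an unadjusted p under 0.01 (3 as reported) was 5 with the median over probes and from 2 to 4 under the other alternatives apart from the replicate block, with 2 to 3 when 1 array was left out. Of all genes, 3.43% were lower as reported, 3.47% with the median over probes and from 1.81% (without cold replicate 3) to 7.19% (without control replicate 5) over the others. Replicate numbers did not pair the arrays (correlations of same-numbered residuals -0.30, 0.54, 0.10 and -0.19, and no array correlated best with its own number). With the replicate number as a block the count was 1 (4.23% of all genes), and USP13 was -0.77. The count at an adjusted p under 0.05 (0 as reported) was 1 with probes required on all 10 arrays and 0 to 2 with 1 array left out, where USP13 passed without control replicate 5 and USP13 and USP38 without cold replicate 2. Many other genes passed with them, 115 of 21572, 633 of 26303 and 1272 of 26303 in turn. It was 1 (131 of all genes) without both control replicate 5 and cold replicate 1, an alternative chosen after seeing the data, which also gave 1 gene higher without overlap. The count of higher genes (0) reached 0 to 1 at an unadjusted 0.01 and 0 to 2 without overlap when 1 array was left out, where 3.03 to 7.05% of all genes were higher at 0.01. The median difference of the USP genes (-0.004) was -0.19 with the processed intensities (all genes -0.10), -0.52 with median centring (all genes -0.43, 18 of 30 USP genes below that), -0.062 with Cy3 alone, -0.16 in the deposited table (all genes 0.01) and -0.060 to 0.0094 with 1 array left out. Other deubiquitinases lower at 0.01 (0) numbered 2 with the processed intensities, 1 each with median centring, no filter on dim probes, the median over probes and the slide position as a block, and 0 to 1 with 1 array left out. Under the 5 scalings 15 USP genes turned sign at least once. This count of signs includes median centring, which moved all genes. USP3 and USP4 are in it although they lay above the median of all genes in all 5. USP24 (to -0.66) and USP9X (to -0.27) turned negative in 4, USP4, USP5 and USP35 in 3, and USP3, USP7, USP28, USP36 and USP48 in 2. USP42 (to 0.63) turned positive in 3, USP46 (to 0.24) in 2, and USP8, USP14 and USP21 in 1. Of the named genes, values turned negative for USP4 (-0.0037 processed, -0.38 centred, -0.0018 Cy3 alone), USP5 (-0.94 centred, -0.43 Cy3 alone, -0.40 deposited), PAN2 (-0.076 centred) and USP28 (-0.76 centred, -0.31 deposited, -0.057 with the median over probes, and -0.047 to 0.080 with 1 array left out, negative without control replicate 3 or cold replicates 2 or 4). Since median centring moved all genes, USP4 and PAN2 still lay above the median of all genes there, and USP5 and USP28 below it. The cause was not tested. USP13 kept its sign and an unadjusted p under 0.01 in all 23 alternatives, USP37 in 20, PAN2 in 16 and USP51 in 7. The Cy5 signal, well above background on 27.0% of the spots of the array with the lowest share, limits the ratios of dim probes.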
